A study of Mus musculus with 8 samples.

Results

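The effect of Blimp1 loss that effector Treg cells of spleen and tumor have in common was examined across 8 RNA-seq libraries, 4 KO and 4 WT, by a model with a term for tissue and a term for genotype. All 8 libraries of the series and all 17870 genes that passed the filter on low counts, of 49212 listed, entered the fit. KO mice were Prdm1fl/flFoxP3YFP-Cre and WT mice FoxP3YFP-Cre, both C57BL/6, so that both genotypes carried the Cre and YFP reporter inserted at Foxp3 and only KO cells could lose Blimp1. Both were inoculated with B16.OVA melanoma cells, which produce ovalbumin, and were immunized against NP-OVA in adjuvant, and CD45+CD44+YFP+CD4+CD3+ cells (eTreg cells) were sorted from spleens and from tumors of at most 1.5 cm3. Each of the 4 groups (KO spleen, WT spleen, KO tumor, WT tumor) had 2 libraries. Per the study's methods, mice entered experiments at 5 to 10 weeks of age where nothing else was stated. Cre acts wherever Foxp3 has been switched on, the number of mice pooled per library is not given in the sources used here, and p-values measure only the spread between these libraries.

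Blimp1, encoded by Prdm1, is a zinc finger protein that shuts off target genes and drives terminal differentiation of B and T cells. In Treg cells it marks the effector state, in which the cells are activated, produce interleukin-10 and suppress immune responses in tissues. It is also known to restrain the type 17 program, the set of cytokine receptors and cytokines by which T cells answer interleukin-23 and make interleukin-17.

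Over both tissues, the genes that led the ranking on the KO side were Msc, Amd2, Dmrta1 and Il23r, and on the WT side Mmp9, Mpped2, Cyp11a1 and Il10. None of them passed the threshold (adjusted p under 0.05 and a log2 fold change beyond 1 either way) in edgeR's quasi-likelihood test, which called 0 of 17870 genes (0%), with a smallest adjusted p of 0.453 that 7 genes shared. Without adjustment, p was under 0.05 for 705 genes higher in KO (3.95%) and 469 lower (2.62%). DESeq2's Wald test on the same design called 138 of 18661 genes (0.74%), 94 higher and 44 lower in KO. Within spleen edgeR called 0 genes (0%) and within tumor 135 (0.755%), a count that ran from 2 to 151 with a library left out and was 2 to 12 without either KO spleen library, either WT tumor library or KO tumor replicate 1. A fit of the tumor libraries alone gave 0 calls (smallest edgeR adjusted p = 0.178), so the tumor calls given below depend on a spread estimated with the spleen libraries. The values over both tissues below are therefore descriptions of where KO and WT libraries lay, and none is an edgeR call of the common effect.

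A gene was counted as not overlapping when both KO libraries lay above, or both below, both WT libraries in spleen and again in tumor. This held for 619 genes higher in KO (3.46% of those tested) and 630 genes lower in KO (3.53%). A further 956 genes were separated in both tissues but in opposite directions, 528 of them higher in KO spleen and lower in KO tumor. The estimated effects of spleen and tumor had the same sign in 50.58% of all genes tested. Of the 137 DESeq2 calls that the edgeR fit also tested, 120 did not overlap in the same direction in both tissues (79 higher and 41 lower in KO) and 136 had effects of the same sign. In 118 of the 137 the effect was beyond 1 on the log2 scale in each tissue. These genes were called on the term common to both tissues, so their shared signs and separation are not a test. The difference between the effects had an unadjusted edgeR p under 0.05 in 37 of the 137, beside 1399 of all 17870 genes tested.

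**Figure D1:**
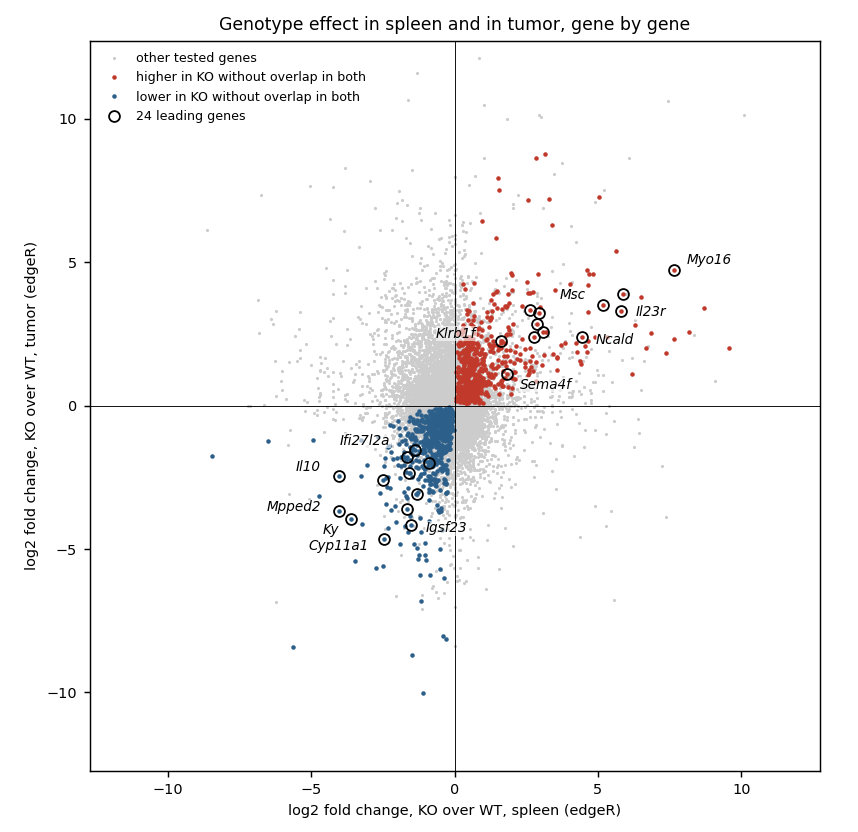
Log2 fold changes of KO over WT in spleen (x axis) and in tumor (y axis) for the 17870 genes tested, from edgeR. Colored points are the 619 genes higher and the 630 lower in KO without overlap in both tissues, circles mark the 24 leading genes (12 of them labeled). Gray points are all other genes, and signs were equal in 50.58% of all genes tested.

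The sorted label was checked against defining markers before single genes were read. Totals ran from 27834676 to 43903859 counts per library, so that 3 counts, the floor used for a gene at 0, corresponded to 0.0644 to 0.112 CPM (counts scaled to a common library total with edgeR's TMM factors). Spleen libraries held Cd4 at 384 to 1009 CPM and Cd8a at 2.33 to 5.96 CPM. In KO tumor, Cd4 was at 148 and 66.2 CPM and Cd8a at 217 and 1214 CPM, against 807 and 1086 CPM of Cd4 and 71.8 and 9.69 CPM of Cd8a in WT tumor, so that both KO tumor libraries held more Cd8a than Cd4 and go against the CD4+ gate. Foxp3 was at 10.2 and 2.99 CPM in KO tumor and at 25.5 and 60.5 CPM in WT tumor. The 8 macrophage markers summed to 15304 and 1697 CPM in KO tumor, 2978 and 444 CPM in WT tumor and 246 to 1571 CPM in the spleen libraries. For this reason spleen and tumor values are given apart for the genes described in full. Fewer cells of a type and less RNA per cell cannot be told apart in these bulk libraries.

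**Figure D2:**
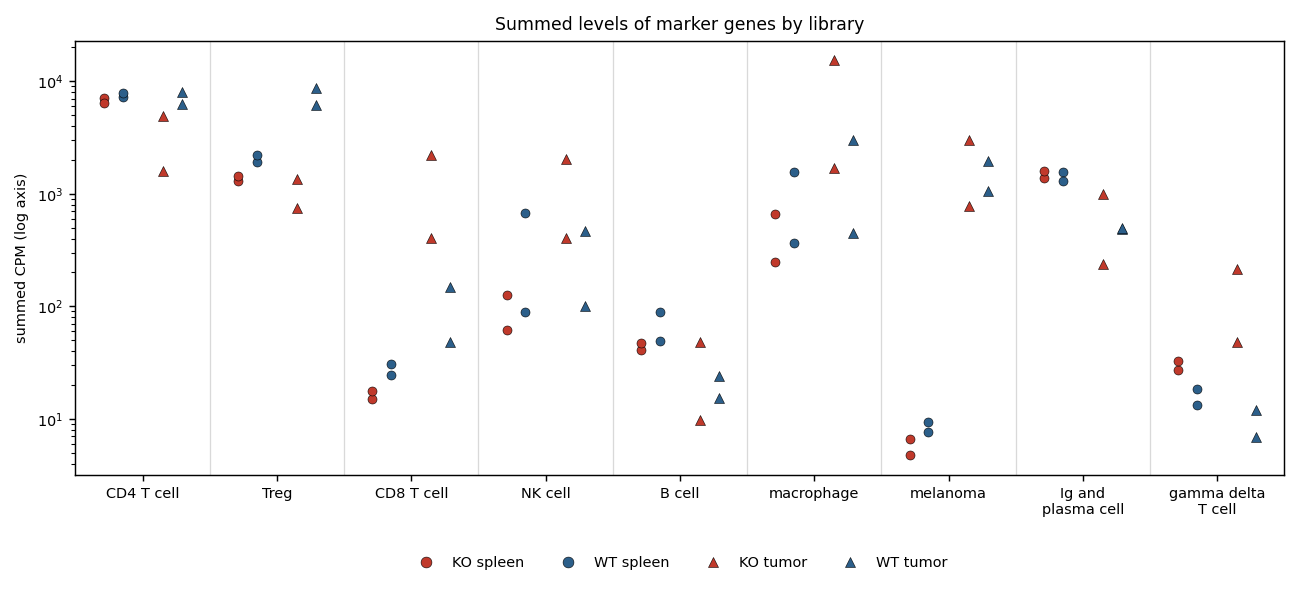
Summed CPM (log axis) of marker gene lists in each of the 8 libraries, with KO in red, WT in blue, spleen as circles and tumor as triangles. The CD8 T cell sum reaches 406 and 2222 CPM in KO tumor and 148 and 48.3 CPM in WT tumor, while all 4 spleen libraries lie between 15.0 and 30.7 CPM.

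Prdm1 itself (chromosome 10, 44437177 to 44528501 on the minus strand, GRCm38) did not pass the test over both tissues. It was at 40.7 and 53.4 CPM in KO spleen against 54.1 and 21.0 CPM in WT spleen. In tumor it was at 90.7 and 75.1 CPM in KO against 108 and 192 CPM in WT. The groups overlapped in spleen and did not overlap in tumor, and the common effect was -0.27 ± 0.39 on the log2 scale (SE, n = 4 against 4, edgeR adjusted p = 0.891). Without WT tumor replicate 2 the estimate turned to 0.04. The counts cover all exons of the gene, and a transcript that lacks only the floxed exons is still counted, so this level does not check the deletion.

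The receptor of the cytokine interleukin-23, which maintains type 17 cells, and a transcription repressor stood at the head of the genes higher in KO. Il23r (chromosome 6, 67422932 to 67491855, minus strand) was at 57.6 and 34.4 CPM in KO spleen and at 0.838 and 0.785 CPM in WT spleen. The tumor libraries held 13.0 and 4.75 CPM in KO against 0.467 and 1.32 CPM in WT. Every KO library thus held more Il23r than every WT library of either tissue. The common log2 fold change was 4.57 ± 0.70 (SE; edgeR adjusted p = 0.453, DESeq2 adjusted p = 1.0e-10), with 5.82 ± 0.75 in spleen and 3.31 ± 0.68 in tumor. The tumor effect was the smaller one, with a difference of -2.51 ± 0.90 (unadjusted p = 0.0224, adjusted p = 0.529, edgeR).

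Msc (chromosome 1, 14753346 to 14755992, minus strand), which encodes musculin, a helix-loop-helix repressor, followed the same order. It was at 11.2 and 13.6 CPM in KO spleen and 0.150 and 0.535 CPM in WT spleen. In tumor it was at 1.27 and 3.63 CPM in KO against 0.216 and 0.203 CPM in WT. All KO libraries lay above all WT libraries, with a common log2 fold change of 4.41 ± 0.63 (SE), 5.19 ± 0.82 in spleen and 3.52 ± 0.79 in tumor. Its edgeR adjusted p was 0.453.

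Klrb1f, a lectin-like receptor gene of the natural killer gene complex (chromosome 6, 129045901 to 129057464, plus strand), was at 19.5 and 11.8 CPM in KO spleen against 5.0 and 5.21 CPM in WT spleen. The tumor libraries held 8.41 and 9.99 CPM in KO against 1.83 and 2.06 CPM in WT. The lowest KO library of either tissue was above the highest WT library. The common log2 fold change was 1.93 ± 0.31 (SE; edgeR adjusted p = 0.453), and the tumor and spleen effects differed by 0.62 ± 0.60.

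Sema4f, a membrane semaphorin gene, had the smallest effect among the 12 leading genes higher in KO and came from higher counts. It was at 63.7 and 52.7 CPM in KO spleen and 20.9 and 12.03 CPM in WT spleen. In tumor it was at 14.5 and 17.5 CPM in KO against 8.52 and 6.51 CPM in WT. Its common log2 fold change was 1.46 ± 0.29 (SE; edgeR adjusted p = 0.551). The tissue mattered here too, since the KO tumor libraries lay within the range of the WT spleen libraries.

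Ncald, Pkd2 and Tuba8 were further leading genes higher in KO. Ncald, which encodes the calcium sensor neurocalcin delta, was at 7.56 and 3.57 CPM in KO spleen and 0.359 and 0.143 CPM in WT spleen, and in tumor at 15.0 and 27.7 CPM in KO against 5.96 and 2.13 CPM in WT. Pkd2, which encodes the cation channel polycystin 2, was near the floor in spleen, with 0.795 and 0.456 CPM in KO against 0.0898 and 0.107 CPM in WT (3 counts in each WT library). In tumor Pkd2 was at 8.92 and 3.33 CPM in KO against 0.826 and 0.371 CPM in WT. Tuba8, an alpha-tubulin gene, was at 5.78 and 3.14 CPM in KO spleen and 0.689 and 0.607 CPM in WT spleen, and at 1.17 and 0.860 CPM in KO tumor and 0.180 and 0.203 CPM in WT tumor. These 3 genes had common log2 fold changes of 3.32 ± 0.63, 3.05 ± 0.54 and 2.60 ± 0.42 (SE), in that order.

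Dmrta1, a DM domain transcription factor gene, and Myo16, an unconventional myosin gene, had 0 counts in both WT spleen libraries. Dmrta1 had 11 and 8 counts in KO spleen, at least 2.23-fold higher than the floor of 3 counts per library. It was at 2.70 and 4.64 CPM in KO tumor and at 0.287 and 0.203 CPM in WT tumor. Myo16 had 22 and 42 counts in KO spleen, at least 7.81-fold higher by the same floor. It had 38 and 47 counts in KO tumor and 0 and 3 counts in WT tumor, and its fitted log2 fold change ran from 4.98 to 8.05 when one library was left out and depends on the prior count of the fit. Both genes were separated in each tissue but rest on few reads.

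Amd2, Atrnl1 and Ptprf completed the 12. Amd2, a copy of the polyamine synthesis gene Amd1, was at 7.71 and 13.7 CPM in KO spleen, 0.898 and 2.00 CPM in WT spleen, 6.10 and 11.9 CPM in KO tumor and 1.47 and 1.01 CPM in WT tumor. Amd1 itself had a log2 fold change of 0.24 ± 0.24 (SE), and since unique reads only were counted, the split of reads between such close copies is uncertain. Atrnl1 (attractin-like 1) and Ptprf (a receptor tyrosine phosphatase) had common log2 fold changes of 3.09 ± 0.59 and 2.84 ± 0.56, with all KO libraries above the WT libraries of the same tissue. Ptprf was at 24.1 and 16.8 CPM in KO spleen but at 2.00 and 2.92 CPM in KO tumor, close to the 2.52 and 2.32 CPM of WT spleen.

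On the other side, the cytokine gene Il10, whose product is the best known suppressive cytokine of eTreg cells, was lower in all KO libraries than in the WT libraries of the same tissue. Il10 (chromosome 1, 131019845 to 131024974, plus strand) was at 0.773 and 0.938 CPM in KO spleen and 14.3 and 14.0 CPM in WT spleen. The tumor libraries held 32.4 and 5.16 CPM in KO against 101 and 106 CPM in WT. WT libraries agreed closely within each tissue, whereas the KO tumor libraries spread widely. The common log2 fold change was -3.22 ± 0.58 (SE; edgeR adjusted p = 0.491), with -4.04 ± 0.77 in spleen and -2.46 ± 0.70 in tumor. Without KO tumor replicate 1, the library with the most macrophage transcripts, it was -4.15 with an edgeR adjusted p of 0.00234, and Il10 was then the only gene called. With each of the other 7 libraries left out its edgeR adjusted p was 0.341 to 0.857.

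Areg, which encodes amphiregulin, a growth factor by which Treg cells aid tissue repair, was lower in KO in both tissues and far apart in tumor. It was at 4.36 and 3.57 CPM in KO spleen and 6.08 and 13.7 CPM in WT spleen. In tumor it was at 38.1 and 18.0 CPM in KO against 262 and 211 CPM in WT. The common log2 fold change was -2.21 ± 0.47 (SE; edgeR adjusted p = 0.619), and the tumor effect of -3.07 ± 0.51 was larger than the spleen effect of -1.32 ± 0.49 by an unadjusted p of 0.0312 (adjusted p = 0.573, edgeR).

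Klrg1 (chromosome 6, 122270596 to 122282882, minus strand), which encodes an inhibitory receptor of terminally differentiated T and NK cells, was the only one of the lectin-like receptor genes among the leading genes lower in KO. It was at 80.7 and 80.4 CPM in KO spleen and 243 and 264 CPM in WT spleen. The tumor libraries held 14.5 and 43.1 CPM in KO against 370 and 324 CPM in WT. No KO library reached a WT library, and the common log2 fold change was -2.62 ± 0.49 (SE; edgeR adjusted p = 0.511), with -1.65 ± 0.48 in spleen (edgeR adjusted p = 0.926) and -3.59 ± 0.52 in tumor (edgeR adjusted p = 0.0348).

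Mmp9 and Igsf23 were among the 12 genes lower in KO. Mmp9, which encodes a gelatinase that cuts extracellular matrix, was at 5.76 and 4.97 CPM in KO spleen, 20.8 and 11.6 CPM in WT spleen, 18.1 and 9.65 CPM in KO tumor and 70.4 and 70.4 CPM in WT tumor. Its common log2 fold change was -1.97 ± 0.32 (SE; edgeR adjusted p = 0.453), and the tumor minus spleen difference of its effects was -0.74 ± 0.60 (edgeR adjusted p = 0.829). Igsf23, an immunoglobulin superfamily gene, was at 7.20 and 7.05 CPM in KO spleen and 16.7 and 23.9 CPM in WT spleen, and at 1.17 and 1.20 CPM in KO tumor and 21.7 and 21.1 CPM in WT tumor. Among the 24 leading genes Igsf23 had the smallest adjusted p for a difference between tissues, at a log2 difference of -2.66 ± 0.53 (edgeR adjusted p = 0.234).

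Cyp11a1, whose enzyme makes the first step of steroid synthesis from cholesterol, was at 0.258 and 0.0761 CPM in KO spleen and 1.17 and 0.714 CPM in WT spleen. In tumor it was at 0.445 and 0.374 CPM in KO against 13.9 and 6.72 CPM in WT. The common log2 fold change was -3.61 ± 0.65 (SE), while the spleen libraries held only 3 to 39 counts of the gene. Mpped2, a metallophosphodiesterase gene, had 0 and 1 counts in KO spleen and 5 and 10 counts in WT spleen, and in tumor 6 and 8 counts in KO and 89 and 94 counts in WT. Ky, a gene of muscle maintenance, had 1 and 3 counts in KO spleen, 2 and 2 in KO tumor, 34 and 6 in WT spleen and 43 and 21 in WT tumor. The spleen part of these 3 genes therefore rests on few reads.

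A pair of interferon-induced genes was among the 12 lower in KO. Isg20, an RNA exonuclease gene, was at 43.9 and 42.0 CPM in KO spleen and 65.5 and 93.8 CPM in WT spleen, and at 52.4 and 63.4 CPM in KO tumor and 192 and 276 CPM in WT tumor. Ifi27l2a was at 845 and 674 CPM in KO spleen and 1145 and 2768 CPM in WT spleen, and at 440 and 706 CPM in KO tumor and 1334 and 2009 CPM in WT tumor. Their common log2 fold changes were -1.45 ± 0.30 and -1.46 ± 0.34 (SE). They did not stand for the interferon-stimulated list as a whole: of its 30 members tested, only Ifi27l2a and Bst2 were lower without overlap in both tissues, none was higher, and the median log2 fold change was -0.15. In spleen 15 of the 30 were lower without overlap, beside 15.5% of all genes, and in tumor 4, beside 19% of all genes.

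Gstm7, a glutathione transferase gene, and BC049352 completed the genes lower in KO. Gstm7 had 8 and 4 counts in KO spleen, 16 and 31 in WT spleen, 4 and 3 in KO tumor and 19 and 24 in WT tumor, and it belongs to a family of similar genes between which reads may be split. BC049352 was at 1.37 and 1.29 CPM in KO spleen, 3.14 and 5.39 CPM in WT spleen, 1.49 and 0.748 CPM in KO tumor and 4.49 and 3.31 CPM in WT tumor. Its tissue effects were alike in value, -1.67 ± 0.58 in spleen and -1.79 ± 0.58 in tumor, with a difference of -0.12 ± 0.80.

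**Figure D3:**
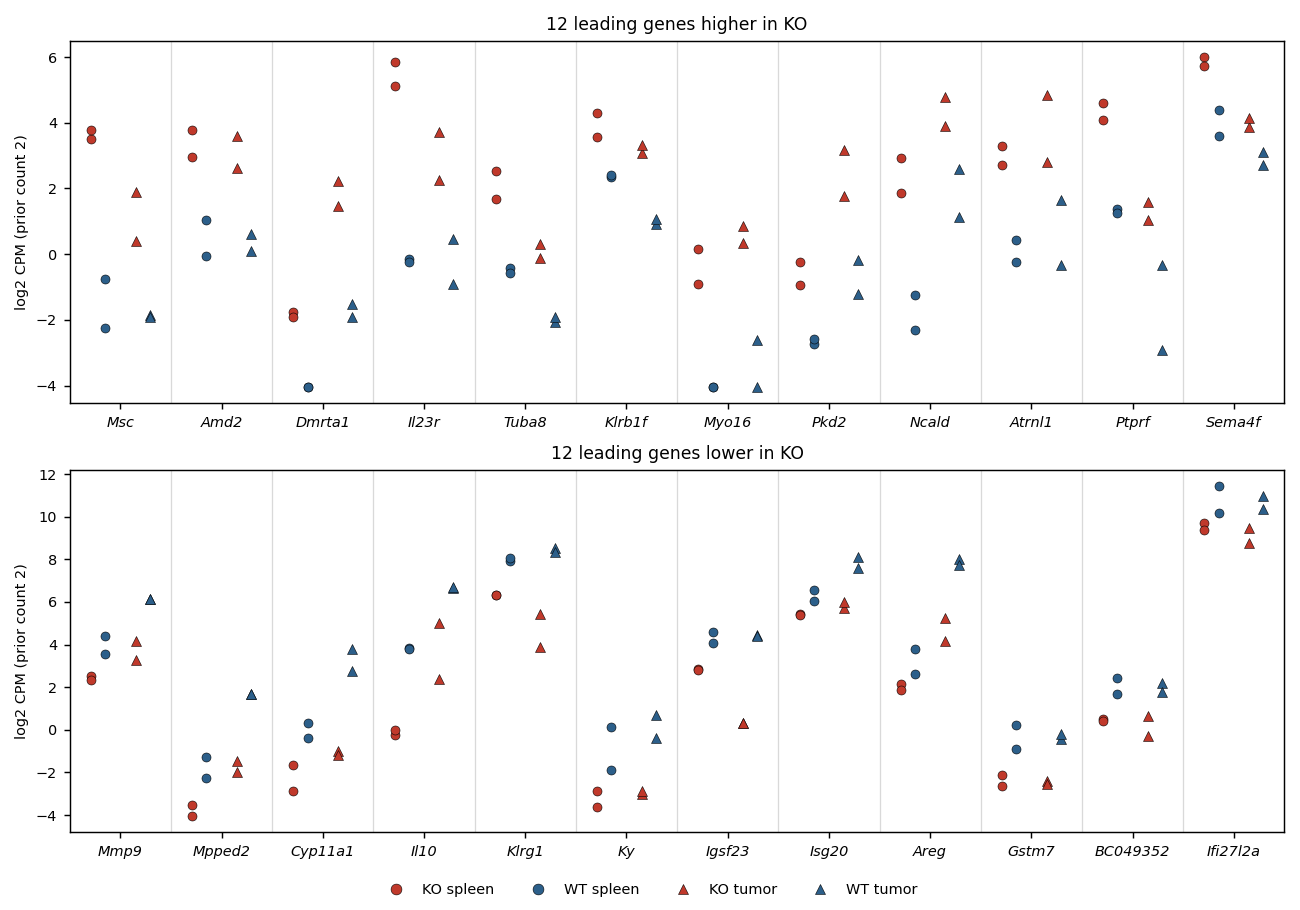
Log2 CPM (prior count 2) of the 24 leading genes in each library, KO in red and WT in blue, spleen as circles and tumor as triangles. Il23r and Msc lie higher in every KO than in every WT library, whereas the KO tumor libraries of Il10 lie far apart from each other, with 32.4 CPM in replicate 1 and 5.16 CPM in replicate 2.

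Across the 24, DESeq2 called all 24 (largest adjusted p = 0.0374), while the edgeR adjusted p ran from 0.453 to 0.640. Within tumor edgeR called 5 of them, all lower in KO (Igsf23, Klrg1, Cyp11a1, Areg and Isg20, with adjusted p from 0.0203 to 0.0481), and within spleen none, with a smallest adjusted p of 0.256. They were ranked by the edgeR p of the same fit and had to be separated, so their number and order are not a test. Of the 12 genes lower in KO, 10 had the larger effect in tumor, and of the 12 higher in KO, 9 had the larger effect in spleen. Among all tested genes 9424 of 17870 had the larger absolute effect in tumor. Of the genes without overlap in both tissues, 448 of the 630 lower and 374 of the 619 higher in KO did so. In WT cells, 7 of the 12 genes lower in KO were higher in tumor than in spleen without overlap, and none was lower, beside 4409 higher and 4802 lower among all 17870 tested genes. The 12 differed in this from the 630 genes lower without overlap in both tissues, of which 118 were higher and 271 lower in WT tumor. For the 12 genes higher in KO, 3 were higher and 4 lower in WT tumor than in WT spleen. The difference between the effects had an unadjusted p under 0.05 in 5 of the 24 genes, and in none of them an adjusted p below 0.234.

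Several genes that define the Treg lineage lay lower in KO in both tissues. Of 18 members of the Treg identity list tested, 10 were lower without overlap in both tissues, none was higher, and 14 were lower at an unadjusted edgeR p under 0.05, beside 3.53% and 2.62% of all genes. The median log2 fold change was -1.49, against 0.01 over all genes tested. It was -0.32 in spleen and -2.74 in tumor, so that the list's median was mostly carried by the tumor libraries. These are also the libraries in which the CD4 T cell markers were low, with summed levels of 1593 and 4879 CPM in KO tumor against 6274 and 7967 CPM in WT tumor, and the part of cell makeup in the list's values was not tested. In tumor edgeR called 12 of the 18 as lower, beside 0.274% of all genes, and in spleen 0. In spleen 10 of the 18 were lower without overlap, beside 15.5% of all genes. The CD4 T cell sums of 7027 and 6461 CPM in KO spleen lay below the 7317 and 7868 CPM in WT spleen. Of the 8 markers in these sums, 5 were lower without overlap, beside the same 15.5%, and Cd28 was higher, beside 15.9%. Cd4 itself overlapped, at 1009 and 875 CPM in KO spleen and 891 and 384 CPM in WT spleen.

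Ikzf2, which encodes the Treg transcription factor Helios, was at 279 and 334 CPM in KO spleen and 468 and 684 CPM in WT spleen. In tumor Ikzf2 was at 64.0 and 44.3 CPM in KO against 296 and 517 CPM in WT. Its common log2 fold change was -1.91 ± 0.46 (SE; edgeR adjusted p = 0.640), with -0.91 ± 0.40 in spleen (edgeR adjusted p = 0.926) and -2.91 ± 0.42 in tumor (edgeR adjusted p = 0.0348). Izumo1r, the gene of folate receptor 4, was at 589 and 514 CPM in KO spleen and 910 and 1357 CPM in WT spleen, and at 10.99 and 11.3 CPM in KO tumor against 232 and 376 CPM in WT tumor. The difference of its effects between tissues was -3.74 ± 0.53 (edgeR adjusted p = 0.177). Foxp3, the lineage factor itself, was at 43.1 and 56.4 CPM in KO spleen and 69.6 and 58.1 CPM in WT spleen, with a spleen effect of -0.36 ± 0.59.

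Receptors of the TNF family that costimulate Treg cells followed the same order. Tnfrsf4 (OX40) was at 680.2 and 699.5 CPM in KO spleen, 974 and 1390 CPM in WT spleen, 200.3 and 311 CPM in KO tumor and 1735 and 2290 CPM in WT tumor. Tnfrsf18 (GITR) was at 413 and 487 CPM in KO spleen, 623 and 973 CPM in WT spleen, 142 and 297 CPM in KO tumor and 1118 and 1801 CPM in WT tumor. Tnfrsf9 (4-1BB) had a common log2 fold change of -1.33 ± 0.39 (SE), beside -1.88 ± 0.48 for Tnfrsf4 and -1.78 ± 0.47 for Tnfrsf18. Of the 26 tested members of the list of inhibitory and costimulatory receptors, 8 were lower without overlap in both tissues (Klrg1, Tnfrsf4, Tnfrsf18, Tnfrsf9, Cd2, Cd5, Tigit and Cd27), beside 3.53% of all genes, and none was higher. Another 7 (Icos, Slamf7, Slamf1, Tnfrsf25, Cd28, Slamf6 and Btla) were separated in opposite directions in spleen and tumor, beside 956 of all 17870 genes tested. In tumor 19 of the 26 were lower without overlap, beside 19% of all genes, and in spleen 9, beside 15.5%.

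Of the 17 tested suppressive mediators, Il10, Areg and Ebi3 were lower without overlap in both tissues, beside 3.53% of all genes. None was higher, and the median of the list was -0.11. Ebi3, which encodes a subunit of interleukin-35, was at 51.4 and 48.9 CPM in KO spleen, 77.4 and 91.0 CPM in WT spleen, 34.4 and 8.72 CPM in KO tumor and 77.2 and 110.2 CPM in WT tumor. Its common log2 fold change was -1.43 ± 0.46 (SE; edgeR adjusted p = 0.707). The low KO values were thus found for 3 named members and not for the list's median.

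Among the 17 T cell gene lists, the type 17 list had the highest share of members that were higher in KO without overlap in both tissues, 4 of 15 tested (Il23r, Il17re, Il1r1 and Il12rb2), beside 3.46% of all genes. Of these 4, Il12rb2 encodes a subunit of the interleukin-12 receptor and is counted here only as a member of the list. No member was lower without overlap in both. In spleen 10 of the 15 were higher without overlap, beside 15.9% of all genes, and none was lower. In tumor 5 were higher and 3 lower, beside 17.9% and 19% of all genes. Il17re, the receptor subunit for interleukin-17C, was at 27.6 and 19.9 CPM in KO spleen and 1.14 and 1.11 CPM in WT spleen, and at 1.97 and 0.935 CPM in KO tumor and 0.395 and 0.675 CPM in WT tumor. Il1r1, a receptor for interleukin-1, was at 15.5 and 9.38 CPM in KO spleen and 1.92 and 0.178 CPM in WT spleen, and at 2.79 and 1.047 CPM in KO tumor and 0.323 and 0.878 CPM in WT tumor. Both had their larger effect in spleen, 4.40 ± 0.58 for Il17re against 1.44 ± 0.55 in tumor, and 3.55 ± 1.04 for Il1r1 against 1.67 ± 1.01 in tumor.

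Tmem176a, a membrane protein gene of the type 17 list, was separated in spleen, at 157 and 170 CPM in KO against 16.5 and 34.1 CPM in WT, and overlapped in tumor. The list's median was 2.09 in spleen and 0.14 in tumor.

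The cytokine receptor list held 4 of 26 members higher without overlap in both tissues (Il23r, Il1r1, Il12rb2 and Tgfbr2) and 1 lower, Il1rl1, beside 3.46% and 3.53% of all genes. Il12rb2, a subunit of the interleukin-12 receptor, was at 8.25 and 2.71 CPM in KO spleen, 1.74 and 0.821 CPM in WT spleen, 33.8 and 65.2 CPM in KO tumor and 27.0 and 25.3 CPM in WT tumor. Il1rl1, which encodes the interleukin-33 receptor ST2 of tissue Treg cells, was at 42.0 and 43.7 CPM in KO spleen, 90.7 and 48.4 CPM in WT spleen, 16.9 and 8.01 CPM in KO tumor and 61.8 and 102 CPM in WT tumor. The groups of Il1rl1 nearly touched in spleen, and its common log2 fold change was -1.70 ± 0.49 (SE; edgeR adjusted p = 0.690).

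On the chemokine receptor and homing list, 2 of 26 tested members (Ccr3 and Ccr8) were lower in KO without overlap in both tissues. Over all genes this share was 3.53%. Ccr8, a receptor of tumor Treg cells, was at 94.5 and 90.6 CPM in KO spleen, 155 and 112 CPM in WT spleen, 83.2 and 55.6 CPM in KO tumor and 853 and 950.3 CPM in WT tumor. Ccr3, better known from eosinophils, was at 19.1 and 47.4 CPM in KO spleen, 52.0 and 119 CPM in WT spleen, 5.33 and 3.59 CPM in KO tumor and 11.2 and 21.8 CPM in WT tumor. Their common log2 fold changes were -2.11 ± 0.66 and -1.62 ± 0.41 (SE). Of 26 tested members of that list, 6 were separated in opposite directions in the 2 tissues, beside 956 of all 17870 genes tested. In spleen 12 were higher without overlap, beside 15.9% of all genes, and in tumor 8 were lower, beside 19% of all genes. Itgb1 was the only member higher in both, beside 3.46% of all genes.

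Tcf7 and Satb1, transcription factor genes of less differentiated T cells, were higher in KO in both tissues. Tcf7, a gene that Blimp1 is known to repress in T cells, was at 371 and 307 CPM in KO spleen, 266 and 222 CPM in WT spleen, 55.1 and 66.3 CPM in KO tumor and 9.38 and 19.7 CPM in WT tumor. Its common log2 fold change was 1.26 ± 0.39 (SE; edgeR adjusted p = 0.694), with 0.47 ± 0.39 in spleen and 2.06 ± 0.41 in tumor. Satb1 was at 62.8 and 52.4 CPM in KO spleen and 47.6 and 51.6 CPM in WT spleen, a narrow gap, and at 63.5 and 98.2 CPM in KO tumor and 22.8 and 32.2 CPM in WT tumor. Of 15 tested members of the textbook Blimp1-repressed list, Tcf7 alone was separated in both tissues, beside 3.46% of all genes higher in KO. Bcl6, its follicular counterpart, had a common log2 fold change of 0.80 ± 0.42, with overlap in tumor.

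Of 17 tested members of the effector cytokine list, Lif was higher and Ltb lower in KO without overlap in both tissues. These are 1 of 17 on each side, beside 3.46% and 3.53% of all genes. Lif was at 9.52 and 9.05 CPM in KO spleen, 4.40 and 2.997 CPM in WT spleen, 45.6 and 11.7 CPM in KO tumor and 7.44 and 8.10 CPM in WT tumor, with a common log2 fold change of 1.61 ± 0.42 (SE; edgeR adjusted p = 0.656). Ltb, which encodes lymphotoxin beta, was at 899 and 851 CPM in KO spleen, 991 and 1445 CPM in WT spleen, 120.0 and 255 CPM in KO tumor and 446.5 and 722 CPM in WT tumor. Each of the other 15 tested members failed to separate in the same direction in both tissues.

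Of the transcription factor and differentiation lists, the effector Treg factors had 1 of 20 tested members higher without overlap in both tissues (Ikzf1, log2 fold change 0.57 ± 0.27, SE) and none lower. The quiescence and memory list had 2 of 17 higher (Tcf7 and Satb1) and Cd27 lower, and the follicular list 2 of 15 higher (Pou2af1 and Cebpa) and Izumo1r lower. Over all genes the shares were 3.46% higher and 3.53% lower. In each of these 3 lists a further 3 members were separated in opposite directions in spleen and tumor, beside 956 of all 17870 genes tested.

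Lists of general cell activity showed no common shift of their members. None of 30 cell cycle genes was separated in both tissues or reached an unadjusted edgeR p under 0.05, although 27 of the 30 had a positive estimate (median 0.35). None of 21 cholesterol synthesis genes was separated in both tissues in the same direction. In the glycolysis and hypoxia list, 2 of 24 members (Gpi1 and Gapdh) were lower without overlap in both, beside 3.53% of all genes. Of 32 immediate early and stress genes, Junb alone was lower without overlap in both tissues and 7 were separated in opposite directions, beside 956 of all 17870 genes tested.

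**Figure D4:**
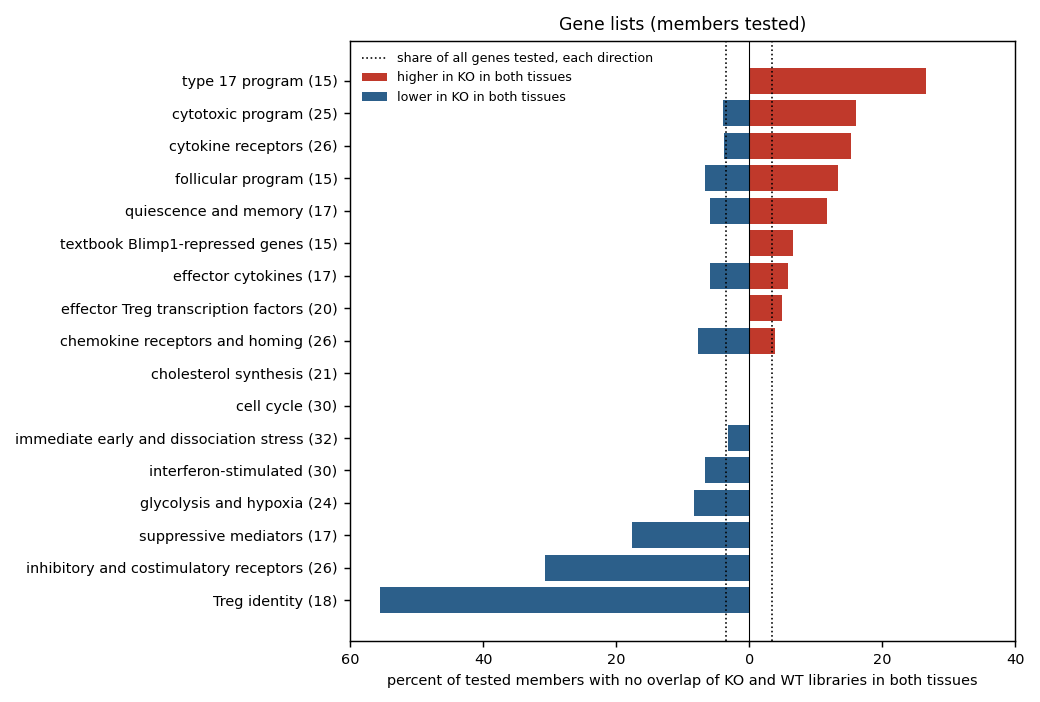
Percent of the tested members of each T cell gene list whose KO and WT libraries did not overlap in the same direction in spleen and tumor, to the right higher and to the left lower in KO. Dotted lines mark the same shares over all genes tested (3.46% higher, 3.53% lower); the Treg identity list reaches farthest on the lower side with 10 of 18 and the type 17 list farthest on the higher side with 4 of 15.

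The cytotoxic list was higher in KO mainly through tumor. Of 25 tested members 18 were higher without overlap in tumor, beside 17.9% of all genes, and 5 in spleen, beside 15.9%. In spleen 6 were lower without overlap, beside 15.5% of all genes. Gzmf and Gzmc were separated in opposite directions in the 2 tissues, beside 956 of all 17870 genes tested. Higher without overlap were 4 (Klrc1, Klre1, Crtam and Gzmk) in both, beside 3.46% of all genes, with Klrg1 lower in both, beside 3.53%. The median log2 fold change was 0 in spleen and 3.74 in tumor. Among the 25, Ncr1, Gzmd and Gzme had no counts in any spleen library and passed the filter through tumor alone. Their fitted spleen effect is 0, so the spleen median of 0 does not measure an unchanged level. Klrc1, which encodes the receptor NKG2A, was at 9.001 and 13.3 CPM in KO spleen, 0.719 and 3.10 CPM in WT spleen, 183 and 792 CPM in KO tumor and 55.7 and 8.07 CPM in WT tumor. Crtam, an adhesion receptor of cytotoxic T cells, was at 9.69 and 5.07 CPM in KO spleen, 3.77 and 2.25 CPM in WT spleen, 14.6 and 52.1 CPM in KO tumor and 5.75 and 0.945 CPM in WT tumor. The CD8 T cell markers moved with these genes in tumor (406 and 2222 CPM in KO, 148 and 48.3 CPM in WT) but not in spleen, where they were at 15.0 and 17.5 CPM in KO against 24.3 and 30.7 CPM in WT, and their part in the tumor values was not tested.

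Klrb1f and Klrc1 belong to the lectin-like receptors of the natural killer gene complex on chromosome 6. The whole Klr family, with Klrg1, was counted after their values had been seen. Its members start between 128609227 and 131219223, except Klrg1 at 122270596 and Klrg2 at 38625693, which lie apart on the same chromosome. Of 23 tested members 6 were higher without overlap in both tissues (Klra1, Klrb1b, Klrb1f, Klrc1, Klre1 and Klri2), beside 3.46% of all genes. Klrg1 alone was lower in both, beside 3.53%. In tumor 19 of the 23 were higher without overlap, beside 17.9% of all genes, and 5 of the 23 (Klra4, Klra5, Klra6, Klra7 and Klra8) had no counts in any spleen library and passed the filter through tumor alone. The NK cell markers summed to 2040 and 404 CPM in KO tumor against 463 and 101 CPM in WT tumor, with overlap, and to 61.9 and 126 CPM in KO spleen against 89.5 and 668 CPM in WT spleen. In every library most of this sum was Fcer1g and Tyrobp, and within each tissue it ordered the libraries as the macrophage sum did. The other 3 markers (Ncr1, Klrb1c and Eomes) were higher in KO tumor without overlap. Ncr1 was at 13.4 and 1.53 CPM in KO tumor, 0.647 and 0.844 CPM in WT tumor and 0 in all spleen libraries. The part of NK cells in the family's values was not tested. Klrb1b was at 3.72 and 7.73 CPM in KO spleen and 0.0299 and 0 CPM in WT spleen, and at 24.3 and 4.83 CPM in KO tumor and 3.05 and 1.82 CPM in WT tumor. Klra1, Klre1 and Klri2 had at most 11 counts in any spleen library, so that Klrb1b, Klrb1f and Klrc1 are the members whose spleen values rest on more than a few reads. Members of this family are similar in sequence, and the split of reads between them is uncertain.

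Transcripts of γδ T cells and of antibody-secreting cells, which the gate should hold few of, were counted as well after DESeq2's calls had been seen. Of those 137 calls, 12 were immunoglobulin or T cell receptor segment genes, all of them higher in KO. They are 12 of the 257 segment genes tested (4.67%), beside 94 calls higher in KO among all 18661 genes of the DESeq2 test. Tcrg-C1, a constant region of the γ chain, was at 12.6 and 16.9 CPM in KO spleen, 2.37 and 4.82 CPM in WT spleen, 1.87 and 8.45 CPM in KO tumor and 0.647 and 0.776 CPM in WT tumor. Of 10 tested γδ T cell transcripts 5 were higher without overlap in both tissues (Tcrg-C1, Tcrg-V4, Tcrg-V6, Cd163l1 and 5830411N06Rik), beside 3.46% of all genes, and none was lower. Trdc, the constant region of the δ chain, was at 4.32 and 4.89 CPM in KO spleen and 4.61 and 3.57 CPM in WT spleen and overlapped, as it did in tumor at 3.87 and 2.66 CPM in KO against 2.19 and 2.70 CPM in WT, and Sox13 had at most 6 counts in any library. The list summed to 26.9 and 32.8 CPM in KO spleen, 13.3 and 18.4 CPM in WT spleen, 48.5 and 214 CPM in KO tumor and 11.97 and 6.95 CPM in WT tumor. Like Il23r, Il17re and Il1r1 the summed list was higher in KO without overlap in both tissues, but different members led it. In KO spleen Tcrg-C1 was the largest member. Most of the KO tumor sum came from Tcrg-C2, another γ chain constant region (replicate 1: 32.4 CPM, replicate 2: 184 CPM). Tcrg-C2 overlapped in spleen, where its log2 fold change was -0.03. The part of γδ T cells in the values of Il23r, Il17re and Il1r1 was not tested.

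Ighg2c, a constant region of an antibody class that immunization induces, was at 4.15 and 0.380 CPM in KO spleen, 0.359 and 0.143 CPM in WT spleen, 75.4 and 3.85 CPM in KO tumor and 0.144 and 0.0338 CPM in WT tumor. Of 11 tested immunoglobulin and plasma cell transcripts, Ighg2c and Pou2af1 were higher without overlap in both tissues, beside 3.46% of all genes. In tumor 6 of the 11 were higher without overlap, beside 17.9% of all genes, and 1, Ighm, was lower, beside 19%. In spleen 3 were higher, beside 15.9% of all genes, and none was lower. The summed level overlapped between genotypes, at 1390.2 and 1608 CPM in KO spleen, 1558 and 1302 CPM in WT spleen, 990.04 and 239 CPM in KO tumor and 487 and 492 CPM in WT tumor. Most of every spleen sum was Ighm, which ranged there from 1098 to 1517 CPM, so the overlap of the sums says little about the other members. Jchain, a defining transcript of antibody-secreting cells, overlapped in both tissues, and Tnfrsf17 was at 0 in 7 of 8 libraries.

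The promoters were searched for GTGAAAG and GCGAAAG on both strands, the core of the textbook Blimp1 site, in the 250 bases before and 50 after each start (RefSeq, GRCm38.p6). Of the 24 leading genes 18 had a promoter in the table, and 1 of them, Gstm7, held a match. Among all tested genes with a promoter, 780 of 11095 (7.03%) held one, among DESeq2 calls higher in KO 8 of 56 (14.3%) and among those lower 2 of 28 (7.14%). For the genes without overlap in both tissues the shares were 6.44% on the higher and 5.57% on the lower side. The 250 bases before the start of Gstm7 (chr3:107931818-107932067, minus strand, written 5′ to 3′ along the gene) are shown because they hold the only match of a leading gene, in capitals, which reads GCGAAAG on the opposite strand and begins 66 bases before the start.
Gstm7: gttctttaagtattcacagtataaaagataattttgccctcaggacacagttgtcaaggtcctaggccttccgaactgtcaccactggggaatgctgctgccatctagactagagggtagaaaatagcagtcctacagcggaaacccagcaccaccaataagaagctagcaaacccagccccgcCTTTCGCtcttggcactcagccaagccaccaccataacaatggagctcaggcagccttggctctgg
A match describes these letters only. Il23r, Areg and the other 15 leading genes with a promoter held none in this window.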

How the data were processed

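RNA from sorted eTreg cells was sequenced as paired reads after rRNA removal, with the strand setting of the counting not given in the sources used here. Per the submitters' processing notes the authors trimmed reads with Trimmomatic 0.36, aligned them to GRCm38 with STAR 2.5.2b and counted unique reads over exons with featureCounts of Subread 1.5.2, and they deposited raw counts per gene and library. CPM values were computed from these counts and TMM-scaled library totals. A further table of normalized values was not used. Groups came from the sample titles.

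Genes passing filterByExpr for the 4 groups were scaled by TMM and fitted by edgeR 4.0.16 (R 4.3.3) quasi-likelihood tests with tissue and genotype as terms, leaving 5 residual degrees of freedom. A second fit with one mean per group gave the effect in each tissue and their difference. P-values were adjusted by Benjamini-Hochberg over all genes tested, and a call required an adjusted p below 0.05 together with a log2 fold change beyond 1 in either direction. Alternatives were DESeq2 1.42.0, limma 3.58.1 voom, other filters and scalings, a replicate block and leaving out each library. Scripts were tested on simulated data. Totals of 27834676 to 43903859 counts set a floor of 3 counts per library, which covers counting error only.

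Named genes were Prdm1, the 12 genes per direction with the smallest p among those without overlap in both tissues (receptor segments, Gm and Rik models, pseudogenes and mitochondrial genes not named), and up to 4 members per T cell list with the smallest p. None of them passed the call. Foxp3, Bcl6, Amd1, Gzmk, Tgfbr2 and members of the lectin-like receptor, γδ T cell and plasma cell lists were named after their values had been seen, as were members given by name in counts. The genes and lists were chosen with earlier results of these data known. One member of the type 17 list is not reported here.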

Additional observations from a re-analysis of the deposited data

Results flagged for a closer look

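Among the 26 inhibitory and costimulatory receptors, 7 lay on opposite sides of WT in the 2 tissues, with no library out of order, beside 956 of all 17870 genes tested. The tumor effect minus the spleen effect (edgeR, log2 scale) was -2.42 for Icos (0.25 in spleen, -2.16 in tumor, adjusted p = 0.234). It was -2.33 for Slamf1, -2.24 for Tnfrsf25, -1.80 for Btla, -1.50 for Slamf6 and -1.27 for Cd28. Slamf7 went the other way, at 2.54 (-0.29 in spleen, 2.24 in tumor, adjusted p = 0.344). None of the 7 differences had an adjusted p below 0.234, and DESeq2 called 309 genes for the difference between tissues where edgeR called 0 (1399 at an unadjusted p under 0.05).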

How the results depend on the processing

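For the common effect, edgeR's 0 calls became 138 with DESeq2's Wald test, 688 with no filter on low counts, 2 with limma voom and quality weights and 5 when the spleen and tumor effects were averaged. With one library left out it gave 0 to 1 calls, the single one being Il10 without KO tumor replicate 1. It gave 0 with DESeq2 size factors, a mean of at least 50 counts, thinned counts, no segment genes and limma voom without weights (chosen after seeing the data). Fits of the spleen libraries only or the tumor libraries only test the effect within that tissue. Each gave 0 calls (smallest edgeR adjusted p = 0.106 in spleen and 0.178 in tumor), so that the 135 tumor calls became 0 when the tumor libraries alone set the spread. Within spleen the 0 calls became 45 (DESeq2), 172 (no filter) and 18 (replicate block), and 0 to 1 with a library left out. Within tumor 135 became 911, 1452 and 918 in that order, and 2 to 151 with a library left out; it fell to 3 without KO spleen replicate 1 or 2 or WT tumor replicate 1, to 2 without WT tumor replicate 2 and to 12 without KO tumor replicate 1. The difference between tissues went from 0 to 309, 752 and 277 calls in that order, and stayed at 0 with any library left out. The cause was not tested.

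The counts of genes without overlap in both tissues rose to between 996 and 1442 (higher in KO) and between 934 and 1506 (lower) with a library left out, since fewer libraries separate more easily. The log2 fold change of Prdm1 ran from -0.61 to 0.0364 with a library left out, and turned positive without WT tumor replicate 2. Of 80 named genes, no other changed direction under DESeq2, its size factors, the replicate block or a left-out library, and 35 passed the threshold with DESeq2.

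Same-numbered libraries share only a number, since the labels do not say which came from one mouse, and the 8 libraries may come from fewer mice. Deviations of same-numbered libraries correlated across genes at 0.155 (KO and WT spleen), 0.234 (KO and WT tumor), -0.22 (KO spleen and KO tumor) and -0.0243 (WT spleen and WT tumor). With the replicate block within each tissue edgeR gave 0 calls for the common effect (smallest adjusted p = 0.219), and limma voom with same-numbered spleen and tumor libraries of a genotype as a replicate block (correlation -0.0979) gave 0 (smallest adjusted p = 0.134).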
